A study of Mus musculus with 7 samples.

Results

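The 7 genes Myom1, Sftpa1, Lingo4, Urml, 1600020E01Rik, Gm11827 and Gm34654 were examined mouse by mouse in liver RNA. They were selected on their measured values, as genes higher in every library labelled B4galt1 hep-/- than in every control library, so their increase is given as a description without a test. The choice also called for genes not typical of liver, which the data go against for Urml and 1600020E01Rik, both above the median of the genes tested in control liver. The genes chosen are 7 of the 23347 genes counted, and all 7 were among the 15179 genes with enough counts to be tested.

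RNA was sequenced from the livers of male mice on a C57BL/6 background, and each library was taken as 1 mouse. The 4 B4galt1 flox/flox mice carry a B4galt1 gene flanked by loxP sites and no Cre, were littermates of the other group, and are called WT in their labels. The 3 B4galt1 hep-/- mice carry the same floxed gene together with a Cre recombinase driven by the albumin promoter, which acts in hepatocytes and leaves B4galt1 intact in the other cells of the liver. Both groups began the CDAHFD, a high-fat diet that lacks choline and takes its protein as L-amino acids and that brings on steatohepatitis and fibrosis, at 6 to 8 weeks of age and ate it for 15 weeks.

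Myom1 encodes myomesin 1, which cross-links myosin filaments in the M-band, the middle line of the sarcomere in skeletal and heart muscle. Sftpa1 encodes surfactant protein A, a collectin (a collagen-like lectin of innate immunity) made by type II cells and club cells of the lung. Lingo4 belongs to the LINGO family of leucine-rich repeat and immunoglobulin domain membrane proteins, whose best known member, LINGO1, acts in a receptor complex with the Nogo receptor in the nervous system. Urml, 1600020E01Rik, Gm11827 and Gm34654 are annotated as long noncoding RNAs, and the name of Urml stands for a transcript up-regulated in Myc-driven liver. The 7 genes lie on 7 different chromosomes, 17, 14, 3, 13, 6, 4 and 9 in the order named above, and Gm11827 shares chromosome 4 with B4galt1.

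The sequences just upstream of the transcription start were read for 3 of the genes, to show what the muscle gene, the lung gene and the most abundant noncoding RNA hold where transcription begins. Each is the 250 bases before a RefSeq transcript start of build GRCm38.p6, printed 5′ to 3′ in the direction of transcription. The windows are chr17:71019307-71019556 on the plus strand for Myom1, chr14:41131538-41131787 on the plus strand for Sftpa1 and chr13:68234732-68234981 on the minus strand for Urml. Capitals mark matches, on either strand, to the 6 motifs searched.
Myom1: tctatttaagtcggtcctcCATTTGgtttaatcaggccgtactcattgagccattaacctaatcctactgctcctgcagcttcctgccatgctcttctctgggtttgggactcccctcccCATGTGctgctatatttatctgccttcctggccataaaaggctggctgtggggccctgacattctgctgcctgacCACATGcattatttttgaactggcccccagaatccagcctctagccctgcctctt
Sftpa1: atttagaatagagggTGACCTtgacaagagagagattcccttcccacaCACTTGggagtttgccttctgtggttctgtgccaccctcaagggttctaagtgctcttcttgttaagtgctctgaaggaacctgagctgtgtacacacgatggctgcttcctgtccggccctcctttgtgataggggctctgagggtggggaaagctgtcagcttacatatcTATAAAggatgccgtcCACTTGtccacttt
Urml: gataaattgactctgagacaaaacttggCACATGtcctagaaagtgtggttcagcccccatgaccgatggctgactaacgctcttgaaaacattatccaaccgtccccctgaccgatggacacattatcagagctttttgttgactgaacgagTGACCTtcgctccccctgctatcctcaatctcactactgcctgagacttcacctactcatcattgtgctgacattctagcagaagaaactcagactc

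Of 32851 such windows, 12.4% held TATAAA (the TATA box), and Sftpa1 had it 30 to 25 bases before its start and Gm34654, on the opposite strand, 142 to 137 bases before. The nuclear receptor half-site AGGTCA was in 14% of windows and, on the opposite strand, in those of Sftpa1 and Urml. The general E-box CANNTG, the core bound by many basic helix-loop-helix factors, was in 66.2% of windows. It matched in 5 of the 6 genes with a window, 3 times in Myom1, 2 times each in Sftpa1 and Gm34654 and 1 time each in Urml and 1600020E01Rik. CACGTG, the E-box of the clock proteins and also a match to CANNTG, was in 6.02% of windows and in those of 1600020E01Rik and Gm34654. TTCNNNGAA, the site of STAT5, and TTATGTAA, the D-box, were in 7.02% and 0.819% of windows and in no window of these genes. Windows were found for 6 of the 7 genes, 8 windows in all, and the Lingo4 window held none of the 6 motifs. A match to these letters is a description of the sequence and not evidence of binding.

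Total counts were between 37838654 and 39668509 in B4galt1 flox/flox libraries and between 30608271 and 34586588 in libraries labelled B4galt1 hep-/-. Levels are given as CPM, the count scaled to the library's TMM-normalized total, on which 3 counts in a library correspond to between 0.069 and 0.0987 CPM, and log2 fold changes are B4galt1 hep-/- over B4galt1 flox/flox from edgeR. The deleted gene was checked first. B4galt1 was at 48.7, 53.0, 49.2 and 51.6 CPM in B4galt1 flox/flox replicates 1 to 4 and at 28.4, 23.9 and 53.7 CPM in replicates 1 to 3 labelled B4galt1 hep-/-. The third of these libraries was near the control level, above every control by CPM. By FPKM, which scales a count to gene length and total reads counted, without TMM, it was at 11.9, just below every control (12.2 to 14.0), while replicates 1 and 2 labelled B4galt1 hep-/- were at 6.47 and 6.52. On CPM the log2 fold change of -0.52 (SE 0.26) did not pass (edgeR's quasi-likelihood test, Benjamini-Hochberg adjusted p = 0.181). An exact permutation test over libraries, two-sided, gave p = 0.143 on CPM and p = 0.0286 on FPKM, where 0.0286 is the smallest p possible. Without that library B4galt1 was called lower, at -0.96 (edgeR adjusted p = 0.0139). The group is called by its label, and the 7 genes are also given without that library below. Mitochondrially encoded transcripts took 3.88% to 7.996% of the counts in the controls and 14.4% to 22.6% in the other group. With the 13 mitochondrially encoded genes left out before normalization, the log2 fold changes of the 7 genes differed by at most 0.00425 from those given below, and 1207 genes were called higher and 1211 lower.

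**Figure D1:**
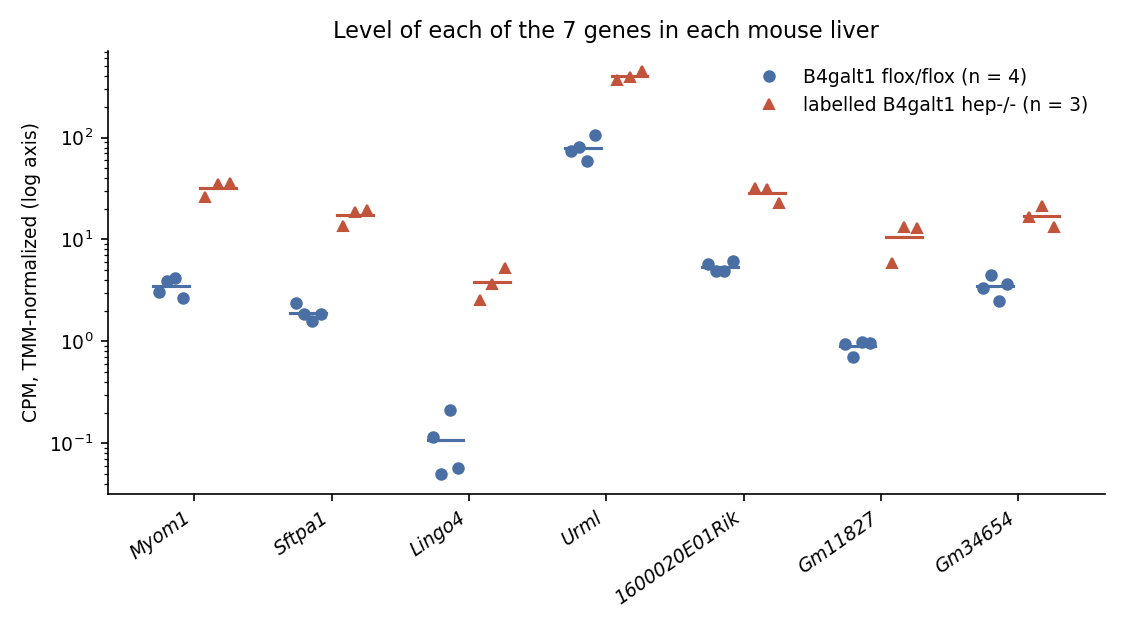
CPM of the 7 genes (log axis) in each of 4 B4galt1 flox/flox livers (circles) and 3 livers labelled B4galt1 hep-/- (triangles), with the group mean as a line. In each gene the triangles lie above all circles, and the levels run from 0.0502 CPM for Lingo4 to 452 CPM for Urml.

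Myom1 and Sftpa1 were higher by nearly the same factor. Myom1 stood at 3.08, 3.89, 4.19 and 2.66 CPM in B4galt1 flox/flox replicates 1 to 4 and at 26.3, 34.9 and 35.8 CPM in replicates 1 to 3 labelled B4galt1 hep-/-. The means were 3.46 ± 0.710 (SD, n = 4) and 32.3 ± 5.24 CPM (SD, n = 3), a log2 fold change of 3.22 (SE 0.23). The highest control and the lowest library of the other group were 6.27-fold apart.

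Sftpa1 stood at 2.37, 1.86, 1.57 and 1.86 CPM in the controls and at 13.7, 18.7 and 19.6 CPM in the libraries labelled B4galt1 hep-/-. Its means were 1.92 ± 0.332 (SD, n = 4) and 17.4 ± 3.20 CPM (SD, n = 3), with a log2 fold change of 3.18 (SE 0.24). For both genes replicate 1 was the lowest of the 3 libraries and replicate 3, in which B4galt1 was near the control level, the highest on CPM, whereas by FPKM replicate 2 was the highest. The underlying counts were moderate, 94 to 179 for Myom1 and 66 to 103 for Sftpa1 in the controls, against 810 to 1157 and 422 to 621.

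Lingo4 differed most. Its counts were 5, 2, 9 and 2 in the controls and 78, 121 and 158 in the libraries labelled B4galt1 hep-/-, or 0.108 ± 0.0744 (SD, n = 4) and 3.79 ± 1.34 CPM (SD, n = 3). In replicates 2 and 4 of the controls it was at or under the 3 counts taken as the floor, so its fold is uncertain. Summed over libraries there were 357 counts against 18. Scaled to the summed TMM-normalized totals of each group, the ratio was 33.9, with a 95% exact interval of 21.2 to 57.9 that covers counting error alone. The log2 fold change was 5.07 (SE 0.54), the second highest of all genes tested, behind Sult2a1 at 5.90 and ahead of Cyp2b13 at 4.70.

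Among the noncoding RNAs, Urml was by far the most abundant. It stood at 73.3, 80.7, 58.8 and 106 CPM in the controls and at 368, 397 and 452 CPM in the other group, with means of 79.6 ± 19.5 (SD, n = 4) and 406 ± 42.7 CPM (SD, n = 3) and a log2 fold change of 2.35 (SE 0.23). 1600020E01Rik stood at 5.73, 4.87, 4.94 and 6.13 CPM in the controls and at 32.2, 31.2 and 22.8 CPM in the other group, a log2 fold change of 2.41 (SE 0.20). Its controls were the tightest of the 7 genes, with an SD of 11.3% of the mean.

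Gm11827 stood at 0.943, 0.703, 0.984 and 0.961 CPM in the controls and at 5.84, 13.3 and 12.9 CPM in the libraries labelled B4galt1 hep-/-, which gave a log2 fold change of 3.57 (SE 0.34), and replicate 1 was the lowest of the 3. Gm34654 stood at 3.31, 4.44, 2.48 and 3.67 CPM in the controls and at 16.6, 21.2 and 13.4 CPM in the other group, a log2 fold change of 2.29 (SE 0.26). The 7 genes thus did not order the libraries alike. Replicate 1 was the lowest for Myom1, Sftpa1, Lingo4, Urml and Gm11827, and replicate 3 for 1600020E01Rik and Gm34654.

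**Figure D2:**
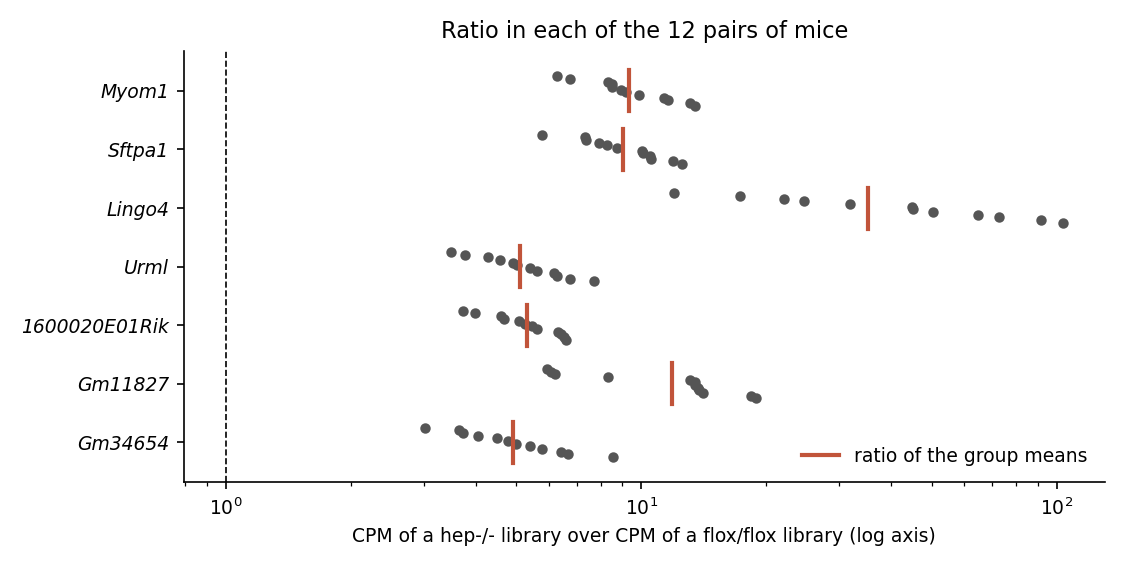
Ratio of the CPM of each library labelled B4galt1 hep-/- to that of each B4galt1 flox/flox library (log axis), 12 pairs per gene as points, with the ratio of the group means as a bar. All ratios are above 1 (dashed line), from 3.01 for Gm34654 to 104 for Lingo4.

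The choice of the genes fixed that all 12 ratios between mice exceeded 1. Of all genes tested, 2060 or 13.6% had every library labelled B4galt1 hep-/- above every control, and 37 had a smallest ratio over 3, the 7 genes among them. The smallest ratios were 12.01 for Lingo4, 6.27 for Myom1, 5.94 for Gm11827, 5.78 for Sftpa1, 3.72 for 1600020E01Rik, 3.49 for Urml and 3.01 for Gm34654. By log2 fold change Lingo4 was 2nd, Gm11827 16th, Myom1 25th, Sftpa1 26th, 1600020E01Rik 103rd, Urml 123rd and Gm34654 143rd of 15179 genes, whose median was 0.02. With any single library left out, the log2 fold change of Myom1 stayed between 3.12 and 3.34, that of Sftpa1 between 3.07 and 3.31 and that of Lingo4 between 4.76 and 5.59. Without replicate 3 labelled B4galt1 hep-/-, the library with B4galt1 near the control level, the log2 fold change was 3.13 for Myom1, 3.07 for Sftpa1, 4.76 for Lingo4, 2.26 for Urml, 2.54 for 1600020E01Rik, 3.40 for Gm11827 and 2.43 for Gm34654.

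Per transcript length the order of the genes was different. Mean FPKM, which divides the count by the gene's length and the library's total, was 51.6 for Urml, 8.26 for 1600020E01Rik, 1.13 for Gm34654, 0.745 for Gm11827, 0.722 for Sftpa1, 0.576 for Myom1 and 0.0263 for Lingo4 in the controls. The control ranges of Gm11827, Sftpa1 and Myom1 overlapped, and so did those of Gm34654 and Gm11827. In the libraries labelled B4galt1 hep-/- the means were 244 for Urml, 40.6 for 1600020E01Rik, 8.23 for Gm11827, 5.998 for Sftpa1, 5.21 for Gm34654, 4.95 for Myom1 and 0.819 for Lingo4, and the ranges of Gm11827, Sftpa1, Gm34654 and Myom1 overlapped. By mean FPKM in the controls alone, Urml was at percentile 92.6 of the genes tested, 1600020E01Rik at 70.7, Gm34654 at 31.5, Gm11827 at 25.7, Sftpa1 at 25.4, Myom1 at 22.6 and Lingo4 at 0.744. Urml and 1600020E01Rik were thus above the median gene in control liver and the other 5 below it.

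Likeness of pattern was measured as the root mean square difference of log2 CPM over the 7 libraries. Each gene was first centred on its own mean in the B4galt1 flox/flox libraries. By this measure the gene nearest to Myom1 of all those tested was Sftpa1, at 0.315, followed by Gm11827 at 0.381 and Gm30963 at 0.412. The genes nearest to Sftpa1 were Noxred1 at 0.296, Myom1 at 0.315 and Gm46841 at 0.344. The measure is small for genes with a like fold change, which the choice of the 7 genes favours, and it is given as a description.

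The counted genes next to each of the 7 were then compared, 3 on each side. Of these 42 neighbours 31 were tested, and by edgeR's test 2 were called higher and 3 lower at an adjusted p under 0.05 and a fold change over 1.5, where 8% of all genes tested were called higher and 7.83% lower. One of those that rose was A630034I12Rik, a noncoding RNA 2 genes from Gm11827, with a log2 fold change of 1.24 (SE 0.25, edgeR adjusted p = 0.0106). Between them lies Trp53inp1, a p53 target, which stood at 97.6 ± 43.8 (SD, n = 4) and 189 ± 63.2 CPM (SD, n = 3), and its adjusted p by edgeR was 0.0830. It was called higher by DESeq2 (adjusted p = 0.0335), with a filter of at least 1 count in any library (adjusted p = 0.0260) and without B4galt1 flox/flox replicate 3 (log2 fold change 1.25, adjusted p = 0.0469). Ndufaf6 on the other side had a log2 fold change of 0.41 (SE 0.24).

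No tested neighbour of Myom1 or Sftpa1 was called higher. Myl12a, a regulatory light chain of nonmuscle myosin and the gene before Myom1, fell by 0.83 on the log2 scale (SE 0.22, edgeR adjusted p = 0.0301). That call was lost without B4galt1 flox/flox replicate 2 (adjusted p = 0.0822) or 3 (adjusted p = 0.0720) and without B4galt1 hep-/- replicate 2 (adjusted p = 0.0832). Lpin2, a phosphatidate phosphatase on the other side, had a log2 fold change of 0.37 (SE 0.19, adjusted p = 0.201), and Emilin2 beyond it, an extracellular matrix glycoprotein, fell by 1.42 (SE 0.31, adjusted p = 0.0143). Sftpa1 lies in a cluster of collectin genes between Mat1a, the methionine adenosyltransferase of liver, and Mbl1, a mannose-binding lectin. Mat1a had a log2 fold change of -0.31 (SE 0.26) and Mbl1 one of -0.16 (SE 0.22), and neither was called. Sftpd, the gene of surfactant protein D and next in the cluster, had one of 0.15 (SE 0.47). Tspan14, the third gene before Sftpa1, fell by 0.62 (SE 0.18, adjusted p = 0.0364), and its call held without replicate 3 labelled B4galt1 hep-/- and was lost without any other single library (adjusted p = 0.0547 to 0.0920).

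Beside the other noncoding RNAs no tested neighbour was called. Pcbp1 and Asprv1 flank 1600020E01Rik and had log2 fold changes of -0.17 (SE 0.26) and 1.04 (SE 0.55). Gclc and Elovl5 flank Gm34654 and had log2 fold changes of 0.15 (SE 0.20) and -0.28 (SE 0.33). The nearest counted genes to Urml, Gm7969 and Gm8016, had too few counts to be tested.

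**Figure D3:**
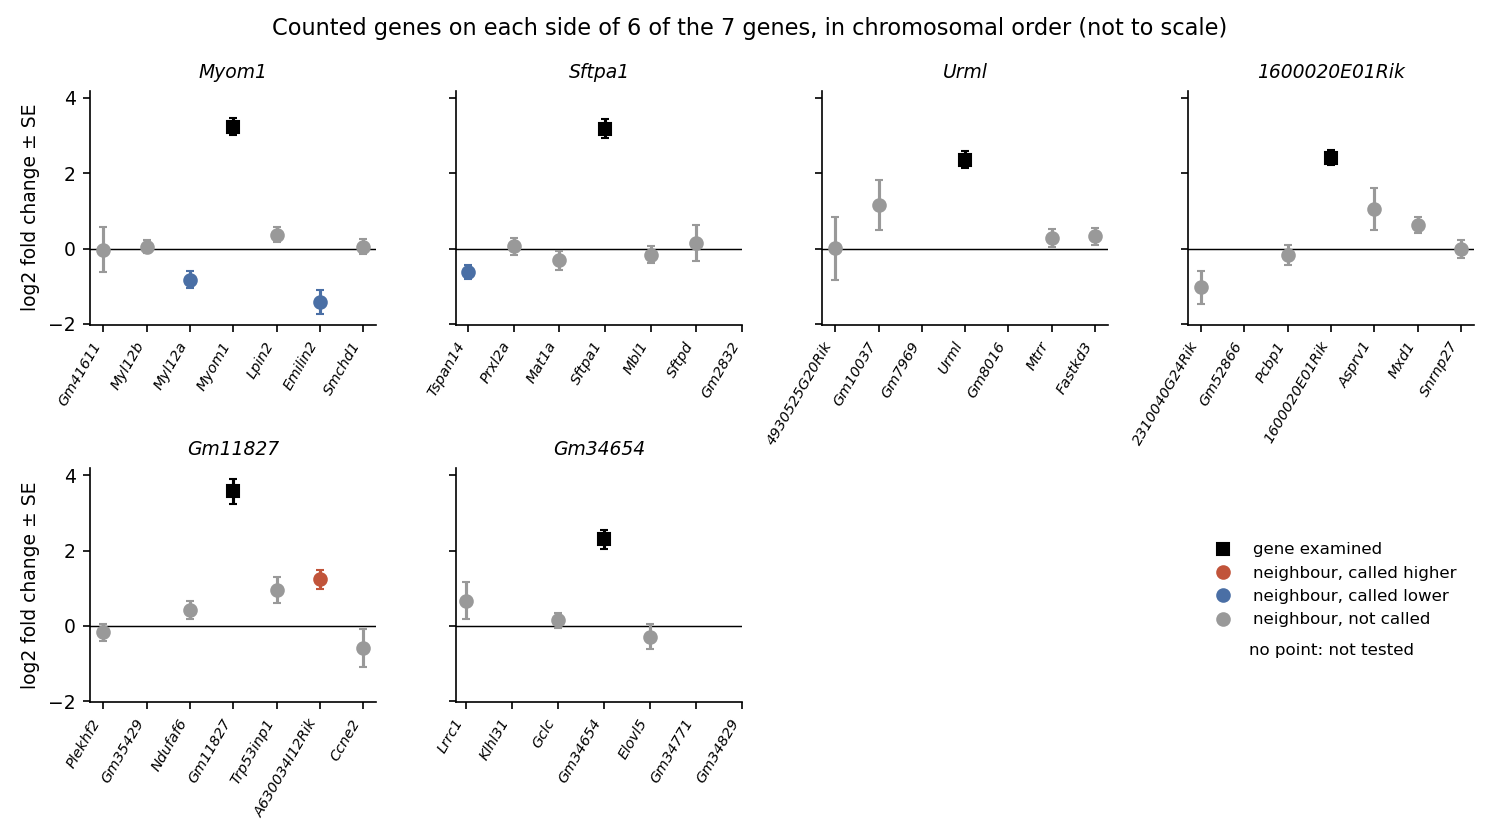
Log2 fold change with its SE of 6 of the 7 genes (squares) and of up to 3 counted genes on each side (circles), in chromosomal order and not to scale, where neighbours called higher or lower are coloured and names without a point were not tested. A630034I12Rik at 1.24 stands near Gm11827 at 3.57, and the neighbours of Myom1 and Sftpa1 lie between -1.42 and 0.37.

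Genes of proteins that work with or resemble myomesin were counted in the same way. Of 15 genes of M-band partners and relatives 14 were counted and 11 tested, and 2 were called higher and none lower. Myom3, another myomesin, rose by a log2 fold change of 1.77 (SE 0.55, adjusted p = 0.0478) on 8 to 18 counts against 18 to 54. It passed without B4galt1 hep-/- replicate 1 but lost the call without any other single library (adjusted p = 0.0659 to 0.139). Myom2 had at most 1 count in any library. Sqstm1, the autophagy receptor p62 and the most abundant of the list, had a log2 fold change of -0.60 (SE 0.22, adjusted p = 0.0858), and it was called lower by DESeq2 (adjusted p = 0.0409) and in the 3 limma fits on FPKM (adjusted p = 0.00932 to 0.0215).

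Genes of striated muscle fibres were mostly too low to test. Of 28 listed genes 23 were counted and 9 tested, with 1 called higher, none lower and a median log2 fold change of -0.06. That gene was Ttn, the giant sarcomere protein titin, with 1 to 18 counts in the controls and 26 to 43 in the other group (log2 fold change 2.28, SE 0.66, adjusted p = 0.0397). Its call held without B4galt1 flox/flox replicate 1 and was lost without any other single library (adjusted p = 0.0602 to 0.108). The defining markers were near 0, with at most 1 count of Acta1 (skeletal actin), 3 of Ckm (muscle creatine kinase) and 5 of Mb (myoglobin) in any library, and 16 of the 23 genes stayed under 1 CPM everywhere. The summed level of the 23 genes was 18.1 to 33.5 CPM in the controls and 25.03 to 31.6 CPM in the other group. Most of it came from Neb (means of 11.3 and 8.37 CPM) and Des (8.87 and 12.8 CPM), so the sum says little about the other genes. Among cardiac genes 11 of 13 were counted and 5 tested, and Tnnt2, cardiac troponin T, alone was called (log2 fold change 1.97, SE 0.39, adjusted p = 0.00963). The summed level of that list was 2.23 to 3.98 and 5.62 to 10.9 CPM.

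The same count was made for genes of lung epithelium. Of 18 listed genes 14 were counted and 8 tested, with 2 called higher, none lower and a median log2 fold change of 0.09. Ager, the receptor for advanced glycation end products, which marks type I cells, went from 0.757 ± 0.406 (SD, n = 4) to 4.80 ± 3.08 CPM (SD, n = 3; log2 fold change 2.66, SE 0.54, adjusted p = 0.0103). Scgb3a1, a secretoglobin of airway cells, had 0 to 13 counts in the controls and 26 to 30 in the other group (log2 fold change 3.05, SE 0.85, adjusted p = 0.0328), and its call held without B4galt1 flox/flox replicate 1 and was lost without any other single library (adjusted p = 0.0534 to 0.0961). Lamp3 and Cldn18 had at most 1 count and Scgb1a1 at most 4 in any library, and Sftpb, Sftpc, Nkx2-1 and Scgb3a2 were not analysed here. The summed level of the list was 93.0 to 116 CPM in the controls and 80.1 to 112 CPM in the other group. Most of it came from Abca3 (means of 42.8 and 30.5 CPM) and Hopx (36.7 and 39.1 CPM), so the sum says little about the low genes. Abca3 and Etv5 were lower in every library labelled B4galt1 hep-/- than in every control but were not called (edgeR adjusted p = 0.148 and 0.0670).

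**Figure D4:**
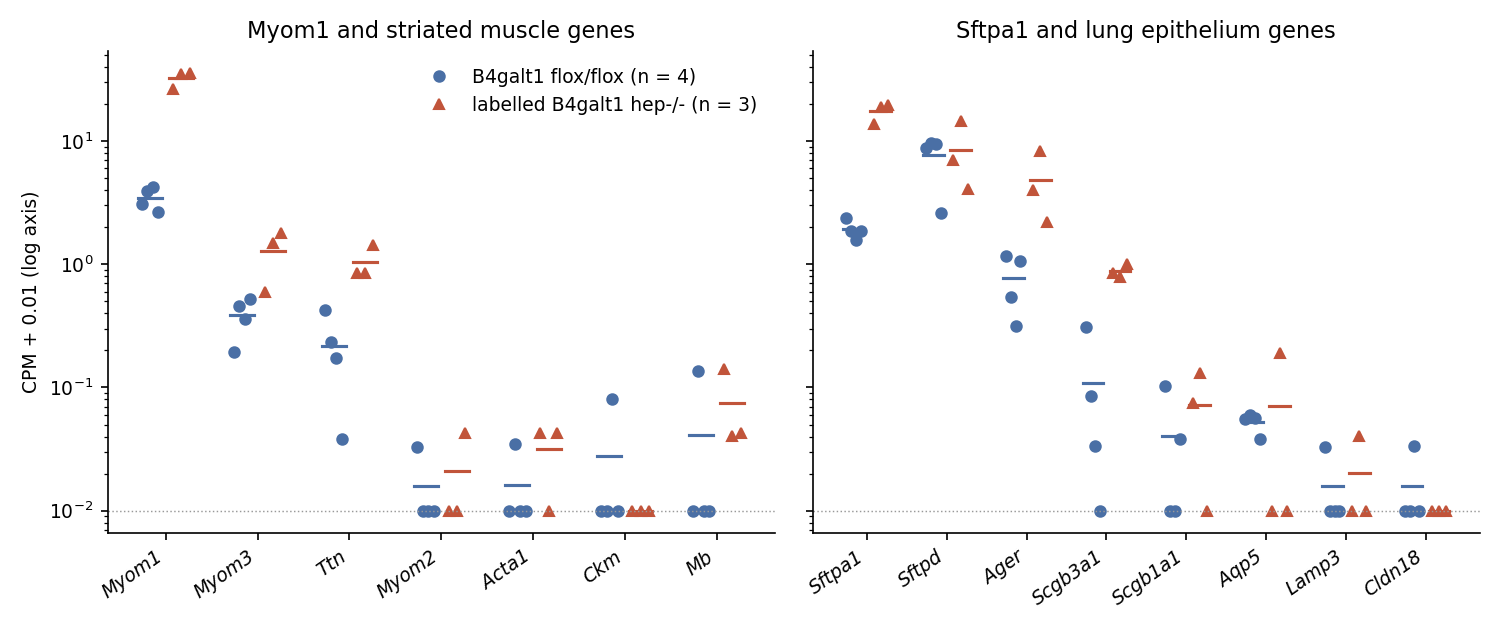
CPM plus 0.01 (log axis) of Myom1 with striated muscle genes and of Sftpa1 with lung epithelium genes in 4 B4galt1 flox/flox livers (circles) and 3 livers labelled B4galt1 hep-/- (triangles), with group means as lines and the level of 0 counts dotted. Myom1 and Sftpa1 lie above 13 CPM in every triangle, while Myom2, Acta1, Ckm, Lamp3 and Cldn18 had 0 to 3 counts in any library.

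No tested gene listed with Sftpa1 or Lingo4 was called higher, where 8% of all genes tested were called higher and 7.83% lower. All 15 collectin, lectin pathway and receptor genes listed were tested, and 1 was called lower. That gene was Masp1, a protease of the lectin pathway, with a log2 fold change of -0.77 (SE 0.21, adjusted p = 0.0302). Its call was lost without B4galt1 flox/flox replicate 2 (adjusted p = 0.0749) or 3 (adjusted p = 0.0692) and without B4galt1 hep-/- replicate 1 (adjusted p = 0.0806) or 2 (adjusted p = 0.0667). Of 13 genes of the LINGO family and the Nogo receptor complex 12 were counted and 9 tested, and 3 were called lower. Ngfr, the p75 neurotrophin receptor, went from 3.12 ± 0.809 (SD, n = 4) to 0.495 ± 0.104 CPM (SD, n = 3; log2 fold change -2.64, SE 0.40, adjusted p = 0.00389). Rtn4, which encodes Nogo, fell by 1.38 on the log2 scale (SE 0.30, adjusted p = 0.0137). Egfr, the epidermal growth factor receptor, which LINGO1 binds, fell by 0.96 (SE 0.28, adjusted p = 0.0382), and passed without B4galt1 flox/flox replicate 3 but lost the call without any other single library (adjusted p = 0.0562 to 0.1001). Lingo1 had 4 to 29 counts and a log2 fold change of 0.54 (SE 0.66), and Lingo3 had at most 2 counts. Of 13 neural and glial genes counted 6 were tested and none was called higher. Syt1, a synaptic vesicle protein, alone was called lower (log2 fold change -1.13, SE 0.33, adjusted p = 0.0389). Its call held without B4galt1 flox/flox replicate 4 or B4galt1 hep-/- replicate 1 and was lost without any other single library (adjusted p = 0.0538 to 0.114). Their summed level was 12.2 to 20.1 CPM in the controls and 11.6 to 17.01 CPM in the other group.

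The cell types of the liver itself were checked with the same libraries. In bulk tissue fewer cells of a type and less RNA per cell cannot be told apart. Of 12 hepatocyte genes none was called higher and 1 lower, Cyp2e1 (log2 fold change -1.32, SE 0.29, adjusted p = 0.0145). Apoa1 was above every control in every library labelled B4galt1 hep-/- but was not called (log2 fold change 0.70, SE 0.28, edgeR adjusted p = 0.109). Alb, albumin, was at 75054 and 91684 CPM on average, which marks both groups as liver. Of 10 Kupffer cell and macrophage genes none was called higher and 6 lower, among them Gpnmb (log2 fold change -1.72, SE 0.31, adjusted p = 0.00691). The summed level of the 10 genes was 993 to 2003 CPM in the controls and 524 to 566 CPM in the other group. Of 10 stellate cell and myofibroblast genes 1 was called higher, Myh11, and none lower. Of 7 endothelial genes none was called higher and 1 lower, Kdr. The call of Myh11 held without B4galt1 hep-/- replicate 2 and was lost without any other single library (adjusted p = 0.0557 to 0.139). That of Kdr held without B4galt1 flox/flox replicate 1 or 2 and was lost without any other (adjusted p = 0.0747 to 0.104). None of 7 cholangiocyte and 6 lymphocyte genes tested was called. The part of these shifts in the levels of the 7 genes was not tested.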

How the data were processed

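Per the labels, 7 liver libraries in 2 groups were analysed, and no column of sample values was left unused. Each library was taken as 1 mouse, which the labels do not state outright, so p-values measure the spread between these samples, part of which may be technical. The authors deposited counts, whole numbers per gene and library that were not normalized, and FPKM values, which equalled the count divided by a fixed gene length and the library total within 1% for all 13374 genes with at least 10 counts in every library. The submitters' processing notes name fastp, HISAT2, HTSeq, DESeq2, R 3.2.0 and build GRCm39, and whether counting used strand is not given in the sources used here, so reads of a gene and an antisense partner may not be separable.

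The filter filterByExpr (minima of 10 for a count and 15 for a gene's total) left the genes to be tested, and TMM gave the library scaling. The test was the quasi-likelihood F-test of edgeR 4.0.16 (R 4.3.3) with p adjusted by Benjamini-Hochberg, and a call needed a value under 0.05 there and a log2 fold change beyond 0.58 in size. Standard errors came from the F statistic. The fit was first tested on simulated data. The members and the 13 gene lists were chosen with earlier results of these data known. Genes were named by rule: the 7 members, B4galt1, the nearest counted gene on each side, in each list up to 3 called genes with the largest change and the gene of highest FPKM, the 3 genes most like Myom1 and Sftpa1, and the genes next to a member by fold change. Other neighbours and list genes were named after their values were seen. The 2 called genes that the rule would name are counted but not reported here. Coordinates are given only for the upstream sequences printed. Chromosomes, neighbours and gene types came from RefSeq on GRCm38.p6, a build that differs from that of the counts. Of the genes counted, 22648 were matched there. By that annotation 1600020E01Rik overlaps Gm38676 and Gm34654 overlaps Gm19572, neither of them analysed here, so their counts could be shared.

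As alternatives, normalization by RLE or upper quartile, DESeq2 1.42.0, other count filters, log2(FPKM + 1) and log2(FPKM + 0.1) with limma 3.58.1, the replicate number as a block, leaving out the 13 mitochondrially encoded genes and leaving out each library in turn were run. The 21 pairs of libraries differed by a chi-square per gene of at least 58.5, so none was a repeat deposit.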

Additional observations from a re-analysis of the deposited data

Results flagged for a closer look

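The controls were searched for a library far from the other 3 (Dixon's test at the 95% level) in 62 measures (levels of single genes, summed levels of lists and total counts), and 4 genes had one, where chance gives about 1 in 20. Gm11827 was lowest in B4galt1 flox/flox replicate 2, at 0.703 CPM against 0.943 to 0.984 CPM in the others. Adgre1, which marks macrophages, was highest in B4galt1 flox/flox replicate 3, at 71.3 CPM against 20.1 to 25.6 CPM. Clec4g, a gene of liver sinusoidal endothelium, was also highest in B4galt1 flox/flox replicate 3, at 90.9 CPM against 19.9 to 28.4 CPM. Col3a1, a collagen gene, was lowest in B4galt1 flox/flox replicate 4, at 141 CPM against 249 to 264 CPM.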

How the results depend on the processing

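The log2 fold changes of the 7 genes stayed above 0 in all 116 values computed under the 17 alternatives. Of these, 13 moved by more than 1 SD, all of them on FPKM, where a pseudocount understates the change of low genes. On log2(FPKM + 1), with or without the FPKM filter, they were 1.90 for Myom1, 2.01 for Sftpa1, 2.14 for 1600020E01Rik, 2.32 for Gm11827 and 1.51 for Gm34654, and without the filter 0.81 for Lingo4. On log2(FPKM + 0.1) they were 2.90 for Myom1 and 2.88 for Sftpa1. Lingo4 was too low for the filtered FPKM fits and for a filter of 10 counts in every library.

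Over all genes 1215 were called higher and 1189 lower, 50.5% higher. On FPKM the split was 562 and 1729 (24.5% higher) with a pseudocount of 1, 556 and 1856 (23.1% higher) with 0.1 and 219 and 1027 (17.6% higher) without the filter. The genes without overlap numbered 1235 on FPKM. DESeq2 called 1715 and 1566. With the replicate number as a block 652 and 615 genes were called. Same-numbered libraries deviated with correlations of -0.337, -0.034 and 0.0777, and 0 of 3 correlated best with its own number. With only 3 such pairs this check cannot exclude a pairing. With 1 library left out the counts ran from 411 to 1291 higher and from 474 to 1175 lower, both lowest without B4galt1 flox/flox replicate 2. The cause was not tested.

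B4galt1 gained the call in 2 of the 17 alternatives, on filtered log2(FPKM + 1), at -0.67 (adjusted p = 0.0398), and without B4galt1 hep-/- replicate 3, at -0.96 (adjusted p = 0.0139). With 1 library left out it ranged from -0.96 to -0.30. Calls among neighbours were 2 on unfiltered FPKM, 3 with the replicate block and 3 to 5 with 1 library left out. With 1 library left out, calls ran from 0 to 3 among M-band partners, 0 to 1 among striated muscle genes, 1 to 2 among lung genes, 0 to 1 among collectin, neural, stellate and endothelial genes, 1 to 3 among hepatocyte genes and 3 to 7 among macrophage genes. With the block, none was called among striated muscle, M-band, collectin, stellate and endothelial genes (0 each). DESeq2 called 4 M-band, 3 neural and 3 hepatocyte genes. With at least 1 count in any library 2 collectin and 2 neural genes were called, and with at least 10 in every library 0 striated muscle, 0 M-band, 1 lung and 2 neural genes. On filtered FPKM, with either pseudocount, 0 striated muscle, 1 M-band, 3 collectin, 0 stellate and 0 endothelial genes were called, and 6 hepatocyte genes with a pseudocount of 1 and 4 with 0.1. On unfiltered FPKM 0 striated muscle, 0 cardiac, 1 M-band, 1 lung, 0 collectin, 0 neural, 1 macrophage, 0 stellate and 0 endothelial genes were called.

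Genes near 0 that changed sign were Mbl1 (-0.31 to 0.014) and Pcbp1 (-0.40 to 0.10) with 1 library left out, both reversed without B4galt1 hep-/- replicate 2, and Hopx on FPKM (-0.10, -0.11 with 0.1) and with 1 library left out (-0.27 to 0.35). Col3a1 was at -0.065 with the block and from -0.13, without B4galt1 hep-/- replicate 1, to 0.57. Spp1 was at -0.011 with the lowest filter, -0.19 on FPKM, -0.36 with the block and -0.57 to 0.34 with 1 library left out. Nkg7 was at -0.054 on FPKM, -0.065 with 0.1 and -0.36 to 0.47 with 1 library left out.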
